A study of Mus musculus with 60 samples.

Results

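These data compare how mouse cancer-associated fibroblasts (CAFs) changed with 344SQ lung cancer cells in 2 culture formats. In multicellular aggregates the CAFs and the cancer cells were mixed, and in Boyden chambers a porous membrane kept them apart. The quantity described for each gene is a difference of changes: the log2 change of CAFs with 344SQ cells against CAFs alone in aggregates ("in contact"), minus the same log2 change in Boyden chambers ("across the membrane"). The comparison takes 36 of the 60 libraries of the series, chosen by their labels. They are 3 libraries of CAFs with 344SQ cells and 3 of CAFs alone in aggregates, and 15 of CAFs with 344SQ cells and 15 of CAFs alone in Boyden chambers. The Boyden libraries are 5 biological replicates per group with 3 technical libraries each, which were summed, so that 16 samples were compared.

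All 4 groups hold cells that the labels call tCAFs, a prefix they do not explain, and the titles of the CAFs grown alone in aggregates add GFP. 344SQ is a metastatic mouse lung adenocarcinoma line. Per the labels, cell sorting by fluorescence enriched the CAFs ahead of lysis. The labels give neither the time in culture, the ratio of the cells, the medium, nor whether the CAFs are 1 line. Nor do they say that replicates came from separate cultures beyond calling them biological, so the p-values measure the spread between these samples, which may be technical.

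CAFs are the activated fibroblasts of tumours. They lay down and remodel the extracellular matrix, and they signal to cancer and immune cells through chemokines, cytokines and growth factors. A carcinoma cell can reach a fibroblast through secreted factors, which pass a membrane, and through adhesion molecules, membrane-bound ligands, shared matrix and pulling forces, which need proximity. Aggregates also differ from chambers in shape, stiffness and access to oxygen and medium, so that contact is not the only thing that the formats change.

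The 6 aggregate libraries held 757717 to 1135567 counts and the 10 summed Boyden samples 4182944 to 8542262. Genes that collect ribosomal RNA reads, the mitochondrial ones included, took 39.6 to 47.1% of the counts in the aggregates and 7.02 to 9.33% in the Boyden samples. Each format had its own CAFs alone as the baseline, and the tables were scaled separately, so levels are not compared between formats. Levels are given as CPM, counts scaled to a common library total. The fibroblast markers Col1a1, Col1a2, Col3a1 and Vim were abundant in all 16 samples (Col1a1 at 1053 to 1276 CPM in contact with 344SQ, 958 to 1447 in aggregates alone, 849 to 1009.6 across the membrane and 1046 to 1169 in chambers alone). The levels that follow in this paragraph are scaled by total counts. Lum was at or near 0. Fap was at 15.8 to 25.4 CPM in contact and 5.28 to 12.2 CPM in aggregates alone, without overlap. It was at 1.90 to 3.46 CPM across the membrane and 1.21 to 2.56 CPM in chambers alone. Postn was at 18.3 to 31.8 CPM in contact and 28.4 to 37 CPM in aggregates alone, and at 8.23 to 16.02 CPM across the membrane and 18.3 to 21.4 CPM in chambers alone. The fibroblast markers summed to 6971 to 7602 CPM across the membrane and 8838 to 9285 CPM in chambers alone, without overlap, and to 4882 to 5203 CPM in contact and 4045 to 6740.2 CPM in aggregates alone, with overlap. Epcam, a marker of epithelial and carcinoma cells, had 0 counts in all 6 aggregate libraries and at most 0.209 CPM in any Boyden sample. Low counts of this 1 marker do not show that carcinoma cells were absent. The summed level of 26 carcinoma markers, scaled by total counts, was 27.5 to 39.4 CPM with 344SQ cells and 16.2 to 22 CPM alone in aggregates, without overlap. In chambers it was 32.4 to 58 CPM with 344SQ cells and 29.8 to 43.3 CPM alone, with overlap. Mesothelial markers summed to 345 to 387 CPM across the membrane from 344SQ cells and 551 to 679 CPM in chambers alone, but to 0.917 to 5.29 CPM with 344SQ cells and 5.07 to 13.2 CPM alone in the aggregates. Of the 8 genes of that list, 4 fell across the membrane (Upk1b by 0.98, Lrrn4 by 0.84, Upk3b by 0.82 and Gpm6a by 0.72 on the log2 scale), Wt1, Msln and Krt19 were not called, and Calb2 was at 0. The part of these markers in the results below was not tested, and in sorted bulk samples fewer cells of a type cannot be told apart from less RNA per cell.

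The change of the CAFs with 344SQ cells depended on the format for a minority of genes, and a smaller set moved in opposite directions. Of 7827 genes with enough counts in both tables, 746 (9.53%) had a difference of changes past an adjusted p of 0.05 in edgeR's quasi-likelihood test, 364 (4.65%) of them higher in contact and 382 (4.88%) lower. The change in contact was called for 815 genes (10.4%), of which 429 rose (5.48%) and 386 fell (4.93%). The change across the membrane was called for 1065 (13.6%), of which 573 rose (7.32%) and 492 fell (6.29%), and 236 genes were called in both. Of these 236, 166 moved in the same direction and 70 (0.894% of the genes tested) in opposite directions, all 70 with a difference called. That last count follows from the choice of genes, since 2 called changes of opposed sign all but ensure a called difference. Among the 166 that moved the same way, 50 (0.639%) had a difference called, and in all 50 the change in contact was the larger. The other 116 (1.48%) had no difference called, and for 76 (0.971%) of them the 95% interval of the difference lay within -1 to 1. Errors were larger in contact, so a change had to be larger there to be called, which favours that order in the 50. The count of 50 therefore does not show a stronger response in contact. Another 399 genes (5.1%) with a difference called had changed in contact only, by the threshold, 159 (2.03%) across the membrane only, and 68 (0.869%) in neither test.

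Across the 7827 genes, the changes in contact and across the membrane were weakly correlated, with a Spearman correlation of 0.097 and a Pearson correlation of 0.129, and 52.1% of genes had the same sign. Among the 1644 genes called in either format, these values were 0.169, 0.159 and 55.8%. Of the 815 genes called in contact, 488 had the same sign across the membrane. Genes are not replicates, so these are descriptions without a p. Most genes were called in neither format, and errors of the estimates pull a correlation towards 0. The low values therefore do not show that the responses were unrelated. The changes spread more widely in contact (SD 0.526 on the log2 scale) than across the membrane (SD 0.275), and so did their errors, with a median standard error (SE) of 0.254 in contact and 0.102 across the membrane. The aggregates varied more between replicates, with a biological coefficient of variation of 16%, against 8.06% in the Boyden samples. The joint edgeR fit gives both formats 1 spread per gene. With a spread per format, limma-voom called 418 differences (5.34%), 207 higher (2.64%) and 211 lower (2.7%), 414 of them among the 746, and edgeR fitted in each table called 460 (5.88%), 454 of them among the 746. The 70 opposite genes passed limma-voom's test of the difference in all cases, and 69 passed edgeR's per table. Without CAFs-alone aggregate 3 the count of 746 was 599, the lowest of the 16 repeats that each left out 1 sample.

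**Figure D1:**
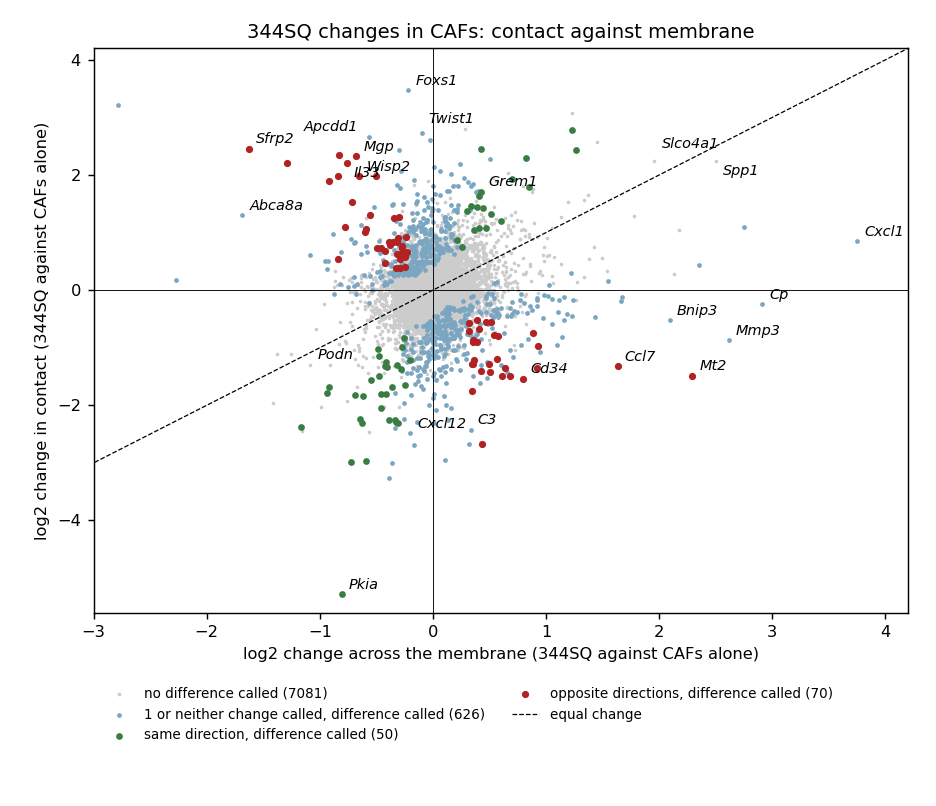
Log2 change of CAFs with 344SQ cells against CAFs alone across the membrane (x axis) and in contact (y axis) for the 7827 genes tested, one point per gene; colours mark the 70 opposite genes, the 50 that moved the same way with a difference called, the 626 others with a difference called and the 7081 without. The 50 concordant points lie farther from 0 on the y axis than on the x axis, an order that the larger errors in contact favour. The cloud shows little common slope.

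The genes that moved in opposite directions form the sharpest contrast. In 41 (0.524%) the level rose in contact and fell across the membrane, and in 29 (0.371%) it fell in contact and rose across the membrane. Their median change in size was 0.905 in contact and 0.426 across the membrane on the log2 scale. A change had to be larger in contact to be called, so these medians do not compare the strength of the formats. In 45 of the 70 the replicate values overlapped between the groups in neither format, which is 0.575% of all genes tested. Over all 7827 genes, whatever their direction, the groups were apart in both formats for 3.59%, in contact for 21.2% and across the membrane for 11.7%.

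Sfrp2, a secreted Frizzled-related protein that binds Wnt ligands, had the largest difference of the genes that rose in contact. Its level was 163, 176 and 131 CPM in the 3 aggregates with 344SQ cells, against 40.01, 27 and 16 CPM in the 3 of CAFs alone. Across the membrane it was 2.07, 4.69, 2.06, 1.19 and 4.12 CPM with 344SQ cells, against 10.3, 8.43, 5.31, 6.09 and 14.6 CPM alone. The groups did not overlap in either format, and the directions were opposed. Sfrp2 (chromosome 3, 83766321 to 83774316, GRCm38, forward strand) changed by 2.46 ± 0.33 (SE) in contact and -1.63 ± 0.31 across the membrane, a difference of 4.08 ± 0.45 (edgeR adjusted p = 6.5e-08, limma-voom 4.1e-06). An exon of the antisense gene Gm26771 overlaps it, and the strand setting of the counts is not given in the sources used here, so reads of such pairs may be mixed. Among the other genes described, exons on the opposite strand also overlap Timp3 (Syn3), Cd34, Pdgfra, Cp (Hps3), Gas7 (Glp2r), Gpc1 (Ankmy1), Lxn (Gfm1), Mmp19 (Tmem198b), Rnf150, Ccbe1, C1s1, Bnip3, Vcam1, Hif1a, Ereg, Tpbg, Prss23, Hmga2, Fbn1, Matn2, Plod2 and Zfp36l1. On the same strand Spp1 shares exon sequence with Gm42793, Tgfbr3 with Gm43422 and Pdgfra with Mir7025. Mgp, matrix Gla protein, an inhibitor of calcification and of bone morphogenetic proteins, was at 121, 328 and 444 CPM in contact with 344SQ and 67.8, 50.5 and 57.4 CPM in aggregates alone. It was at 14.3, 18.9, 10.1, 15.3 and 15.5 CPM across the membrane and 20.5, 21.4, 22, 23 and 32.1 CPM in chambers alone. All 344SQ aggregates lay above, and all 344SQ chamber samples below, their own baselines, and the difference was 3.01 ± 0.36 (edgeR adjusted p = 3.0e-07).

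Il33, a nuclear alarmin cytokine of barrier and stromal cells, was at 133, 208 and 499 CPM in contact and 62.2, 75.8 and 48 CPM in aggregates alone. Across the membrane it was at 18.7, 8.26, 10.1, 17.7 and 17.3 CPM, against 23.9, 29, 22.5, 19.9 and 25.8 CPM in chambers alone. The contact values were spread over a wide range but stayed above the baseline, and the difference was 2.97 ± 0.42 (edgeR adjusted p = 4.7e-06). Wisp2, a matricellular protein of the CCN family induced by Wnt signalling, was at 42, 83.1 and 43.1 CPM in contact and 20.01, 13.5 and 6.67 CPM in aggregates alone. It was at 93.8, 112, 84, 100.2 and 100.01 CPM across the membrane and 188, 130.5, 138, 155 and 159 CPM in chambers alone. Wisp2 showed the same crossing pattern without overlap, with a difference of 2.63 ± 0.38 (edgeR adjusted p = 7.0e-06).

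Ahr, the aryl hydrocarbon receptor, a ligand-activated transcription factor, had the smallest adjusted p of the opposite genes named. Its level was 507, 668 and 623 CPM in contact and 134, 174 and 152 CPM in aggregates alone, and 218, 218, 210.1, 219 and 204 CPM across the membrane and 313, 322, 284, 291 and 307 CPM in chambers alone. It changed by 1.98 ± 0.12 in contact and -0.50 ± 0.07 across the membrane, a difference of 2.48 ± 0.14 (edgeR adjusted p = 3.0e-15). Abi3bp, a matrix protein that binds fibroblasts, changed by 1.89 ± 0.23 in contact, from counts in all 3 replicates above the baseline, and by -0.92 ± 0.26 across the membrane, where its level was only 4.54 to 8.93 CPM with 344SQ cells and 10.5 to 16 CPM alone. Tmem119 differed by 1.87 ± 0.24. Timp3, a matrix-bound inhibitor of metalloproteinases, also moved in opposite directions (0.53 ± 0.13 in contact and -0.84 ± 0.10 across the membrane), but its contact groups met, at 2621, 2426 and 2156 CPM with 344SQ cells and 1394, 1412 and 2164 CPM alone. Slit2, a guidance ligand of Robo receptors, changed by 0.90 ± 0.14 in contact and -0.31 ± 0.10 across the membrane, where its groups overlapped. Col6a3, a chain of collagen VI, changed by 0.47 ± 0.13 and -0.42 ± 0.10, and its groups overlapped in contact.

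In the other orientation, Mt2, a metallothionein that binds zinc and copper, had the largest difference. Its level was 19.7, 34.5 and 10.8 CPM in contact with 344SQ cells, against 48.9, 55.6 and 70.7 CPM in aggregates alone. Across the membrane it was 79.9, 70.9, 72.6, 91.7 and 78.6 CPM, against 18.6, 15.2, 14, 15.8 and 16.5 CPM in chambers alone. Every contact sample lay below its baseline and every membrane sample above its own. Mt2 (chromosome 8, 94172664 to 94173568, GRCm38, forward strand) changed by -1.49 ± 0.26 in contact and 2.29 ± 0.11 across the membrane, a difference of -3.78 ± 0.28 (edgeR adjusted p = 7.5e-12, limma-voom 4.3e-09). Ccl7, a chemokine that draws monocytes, was at 21, 28.2 and 10.8 CPM in contact and 41.1, 50.5 and 54.7 CPM in aggregates alone. It was at 439, 458, 377, 389 and 439.7 CPM across the membrane and 149.99, 128, 139, 138 and 123 CPM in chambers alone. The Ccl7 groups were apart in both formats, and the difference was -2.95 ± 0.38 (edgeR adjusted p = 9.1e-07).

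Promoters of the 2 genes of largest difference in each orientation were sought in the RefSeq table of the assembly GRCm38.p6, which had Sfrp2 and Mt2; Mgp and Ccl7 are named only. They are shown because Mt2 belongs to a family known for metal response elements, the sites of the zinc-sensing factor MTF1. Each run covers 250 bases before to 50 after the gene start in the RefSeq table, on the forward strand, chr3:83766071-83766370 for Sfrp2 and chr8:94172368-94172667 for Mt2. For Mt2 the RefSeq start lies upstream of the GENCODE start given above, and the run ends close to the GENCODE start. Capitals mark matches to the core of that element, searched as TGCACNC and TGCGCNC on both strands.
Sfrp2: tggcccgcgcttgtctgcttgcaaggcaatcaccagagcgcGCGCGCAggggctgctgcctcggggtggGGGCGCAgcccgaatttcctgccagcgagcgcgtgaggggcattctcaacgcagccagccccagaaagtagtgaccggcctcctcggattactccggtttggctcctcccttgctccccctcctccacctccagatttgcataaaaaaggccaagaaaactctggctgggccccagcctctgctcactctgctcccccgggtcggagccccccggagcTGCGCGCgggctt
Mt2: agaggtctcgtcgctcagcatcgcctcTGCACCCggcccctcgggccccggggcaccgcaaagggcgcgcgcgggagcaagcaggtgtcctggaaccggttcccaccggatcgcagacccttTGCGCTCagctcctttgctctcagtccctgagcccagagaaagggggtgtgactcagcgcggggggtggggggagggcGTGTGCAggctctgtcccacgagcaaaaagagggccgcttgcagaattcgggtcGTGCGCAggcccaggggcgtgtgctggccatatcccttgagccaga
Mt2 held 4 matches and Sfrp2 held 3, and 25.7% of the 32851 promoters of this length held at least 1. The TCF/LEF motif, searched as CTTTGAT and CTTTGAA on both strands, had no match in either window and was in 8.65% of all promoters. A match is a description of the sequence and shows no binding.

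Cd34, a surface sialomucin of fibroblast progenitors and endothelium, was at 23.6, 4.7 and 8.38 CPM in contact and 34.5, 50.5 and 26.7 CPM in aggregates alone, and at 11.8, 16.7, 14.4, 13.1 and 21.1 CPM across the membrane and 6.52, 7.99, 9.23, 10.01 and 10.2 CPM in chambers alone. The groups did not overlap, and the difference was -2.33 ± 0.44 (edgeR adjusted p = 3.0e-04). Pdgfra, a receptor for platelet-derived growth factor and a fibroblast marker, was at 465, 285 and 357 CPM in contact and 906, 465 and 472 CPM in aggregates alone. It was at 256, 262, 268, 243 and 263 CPM across the membrane and 143, 142, 136, 133 and 149 CPM in chambers alone. Its contact groups came close without overlapping, and the difference was -1.63 ± 0.19 (edgeR adjusted p = 2.4e-07). Rnf150 changed by -1.75 ± 0.16 in contact and 0.35 ± 0.08 across the membrane, Gas7 by -1.35 ± 0.16 and 0.64 ± 0.14, and Ccbe1, a secreted matrix factor of lymphatic growth, by -1.49 ± 0.39 and 0.68 ± 0.11. Pcdh9, a protocadherin, changed by -1.49 ± 0.45 and 0.61 ± 0.09. The contact changes of Ccbe1 and Pcdh9 rested on few raw counts. Ccbe1 had 2, 6 and 10 counts with 344SQ cells and 26, 9 and 16 in aggregates alone. Pcdh9 had 5, 4 and 3 with 344SQ cells and 14, 8 and 12 in aggregates alone. Tgfbr3, the co-receptor betaglycan of TGF-beta, changed by -0.56 ± 0.12 and 0.47 ± 0.08, with overlapping groups in contact. The noncoding Gm43422, which shares exon sequence with Tgfbr3 on the same strand, changed by -1.36 ± 0.43 and 0.92 ± 0.19. Its raw counts were 10, 11 and 4 in contact and 26, 11 and 28 in aggregates alone. C1s1, a serine protease of the classical complement pathway, changed by -0.78 ± 0.20 and 0.54 ± 0.10, with overlapping groups across the membrane.

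**Figure D2:**
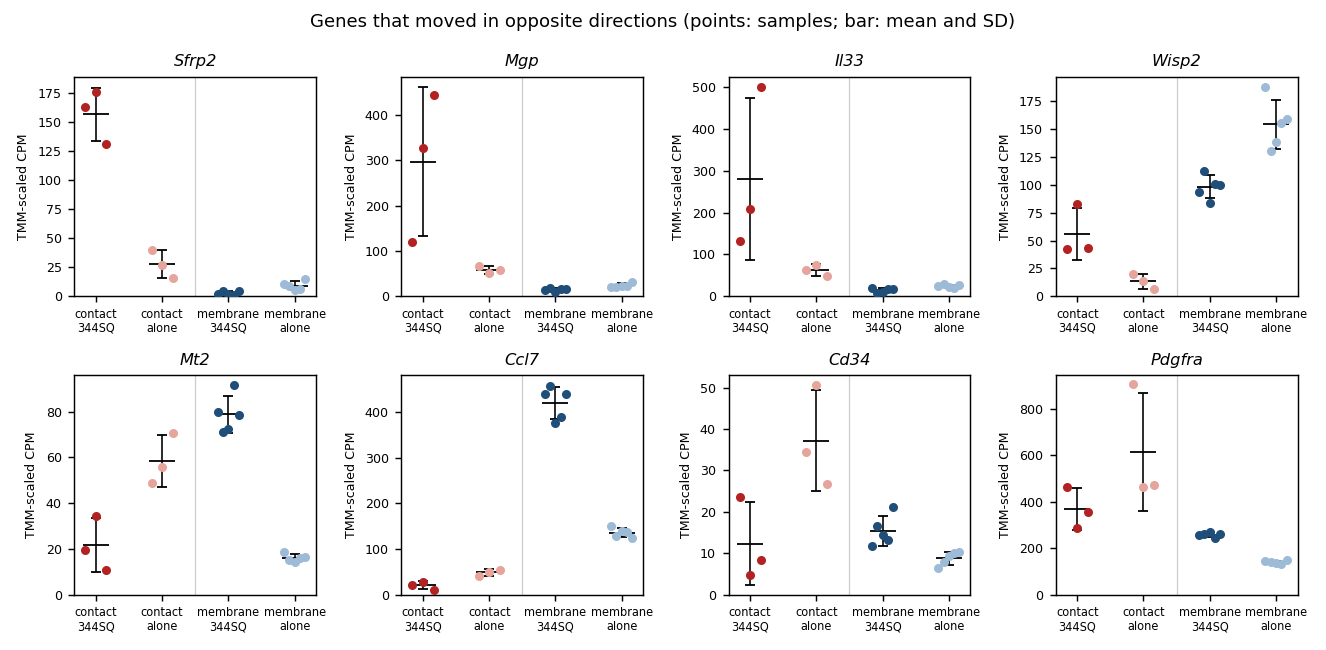
TMM-scaled CPM (y axis from 0) of 8 genes that moved in opposite directions, one point per sample (3 per aggregate group, 5 per chamber group), with the mean and SD as a black bar. In the top row the 344SQ aggregates lie above their baseline and the 344SQ chamber samples below theirs; in the bottom row the order is reversed in both formats.

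Genes called in contact and not across the membrane were the most numerous, with 203 that rose (2.59%) and 196 that fell (2.5%). For 393 of these 399 the change across the membrane was under 0.5 in size on the log2 scale. Changes across the membrane had an SD of 0.275 over all genes tested, and genes called across the membrane are left out here. The count of 393 therefore does not show that the response was specific to contact. The rises included Twist1, a transcription factor of mesenchymal cells, at 36.8, 62.7 and 69.5 CPM in contact and 5.56, 11.8 and 9.34 CPM in aggregates alone. Across the membrane Twist1 was at 10.2, 9.38, 13.3, 13.1 and 7.22 CPM, against 11.5, 13.5, 10.2, 10.1 and 11.8 CPM in chambers alone, where the groups overlapped, and the difference was 2.82 ± 0.38 (edgeR adjusted p = 2.3e-06). Apcdd1, an inhibitor of Wnt signalling at the cell surface, was at 137, 419.98 and 235 CPM in contact and 25.6, 48.9 and 52.1 CPM in aggregates alone. Its level was 9.13, 9.76, 5.72, 8.12 and 7.99 CPM across the membrane and 14.8, 11.1, 10.5, 12.7 and 12.1 CPM in chambers alone. Apcdd1 values lay apart in both formats, lower with 344SQ cells in chambers, although that change of -0.57 ± 0.23 was not called (edgeR adjusted p = 0.095), and the difference was 3.23 ± 0.36.

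Thy1, a surface glycoprotein of fibroblasts, was at 470.1, 1419.8 and 805 CPM in contact and 185, 226 and 234 CPM in aggregates alone, with a difference of 2.35 ± 0.32 from the change across the membrane. Piezo2, a mechanically gated ion channel, was at 77.5, 69 and 156 CPM in contact and 25.6, 20.2 and 10.7 CPM in aggregates alone and differed by 2.73 ± 0.35. Npr3, the clearance receptor of natriuretic peptides, was at 345, 489 and 688 CPM in contact and 143, 104 and 93.4 CPM in aggregates alone and differed by 2.13 ± 0.22. In these 3 genes the contact groups were apart and the chamber groups overlapped, at 189.5 to 378 CPM with 344SQ and 261 to 405 CPM alone for Thy1.

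The falls in contact included the CAF secretory genes Cxcl12 and C3. Cxcl12, a chemokine of CXCR4-bearing cells and a hallmark product of CAFs, was at 251, 351 and 223 CPM in contact and 1566, 1412 and 1598 CPM in aggregates alone. Across the membrane it was at 1781, 1624, 1756, 1742 and 1748 CPM, against 2006, 2019.9, 1948, 2001 and 1993 CPM in chambers alone. In contact Cxcl12 was 5.6-fold lower, while the change of -0.20 ± 0.08 in chambers, although the groups were apart, was not called (edgeR adjusted p = 0.095). The difference was -2.28 ± 0.15 (edgeR adjusted p = 1.8e-13). C3, the central complement component, was at 256, 205 and 275 CPM in contact and 1225, 1496 and 1256 CPM in aggregates alone, and at 1576, 1423, 1203, 1246 and 1422 CPM across the membrane and 1287, 1119, 931, 929.7 and 1189.6 CPM in chambers alone. C3 thus lay far below its baseline in each 344SQ aggregate and overlapped its baseline in chambers, with a difference of -2.75 ± 0.22 (edgeR adjusted p = 2.7e-11). Cemip, a hyaluronan-degrading protein, was at 52.5, 20.4 and 32.3 CPM in contact and 228, 241 and 226 CPM in aggregates alone and differed by -2.53 ± 0.20. Nckap5 fell to 1.31, 1.57 and 2.4 CPM in contact, against 15.6, 15.2 and 21.4 CPM in aggregates alone, and differed by -2.87 ± 0.62. Both had overlapping groups in chambers.

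Genes called across the membrane and not in contact numbered 90 that rose (1.15%) and 69 that fell (0.882%). In 148 of these 159 the uncalled change in contact had the other sign. Over all genes tested, 52.1% had the same sign in both formats. Choosing genes by a called difference without a called change in contact favours opposed signs. The count of 148 therefore does not show opposed responses. Cxcl1, a neutrophil chemokine, was at 17.1, 40.7 and 15.6 CPM in contact and 6.67, 18.5 and 16 CPM in aggregates alone. Across the membrane it was at 144, 133, 155, 212 and 193 CPM, against 11.1, 10.1, 14.5, 14.2 and 11.7 CPM in chambers alone. The chamber groups were far apart, the contact groups overlapped, and the difference was -2.90 ± 0.57 (edgeR adjusted p = 5.5e-04). Mmp3, a metalloproteinase of stromal cells, was at 31.5, 7.84 and 5.99 CPM in contact and 33.3, 50.5 and 2.67 CPM in aggregates alone, with single samples far apart in both groups. It was at 81.5, 64.4, 73.9, 84 and 107 CPM across the membrane and 13.2, 11.2, 16.1, 15.3 and 10.7 CPM in chambers alone, a difference of -3.48 ± 0.56 (edgeR adjusted p = 3.6e-05, limma-voom 0.011).

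Bnip3, a mitophagy protein induced by low oxygen, was at 24.9, 14.1 and 31.1 CPM in contact and 45.6, 30.3 and 25.4 CPM in aggregates alone. It was at 38.8, 39.6, 36.9, 29.4 and 44.1 CPM across the membrane and 7.32, 10.7, 8.35, 8.93 and 8.87 CPM in chambers alone. Only the chamber groups were apart, and the difference was -2.61 ± 0.34 (edgeR adjusted p = 9.9e-07). Cp, ceruloplasmin, a copper-carrying ferroxidase and acute phase protein, was at 70.9, 103 and 77.9 CPM in contact and 73.4, 185 and 52.1 CPM in aggregates alone, and at 46.7, 28, 43.3, 34.8 and 46.4 CPM across the membrane and 3.5, 3.99, 5.44, 5.95 and 7.12 CPM in chambers alone, a difference of -3.16 ± 0.37. Micall2 differed by -2.03 ± 0.42 and Cyp7b1, an oxysterol hydroxylase, by -2.04 ± 0.45. Of the genes that fell across the membrane, Abca8a, a lipid transporter, was at 1.24, 1.69, 2.52, 2.86 and 1.55 CPM with 344SQ and 6.36, 5.47, 8.35, 4.47 and 6.98 CPM alone, and differed by 2.99 ± 0.55. Nqo1, a quinone reductase and target of NRF2, fell to 14.5, 13.3, 13, 15.3 and 11.6 CPM across the membrane, against 25.3, 23.4, 23, 24.2 and 29.7 CPM in chambers alone, while in contact it was at 13.1, 28.2 and 15.6 CPM with 344SQ and 7.78, 11.8 and 9.34 CPM alone, a change of 0.97 ± 0.36 that was not called. Whrn differed by 1.47 ± 0.32 and Nkd1 by 1.70 ± 0.30.

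**Figure D3:**
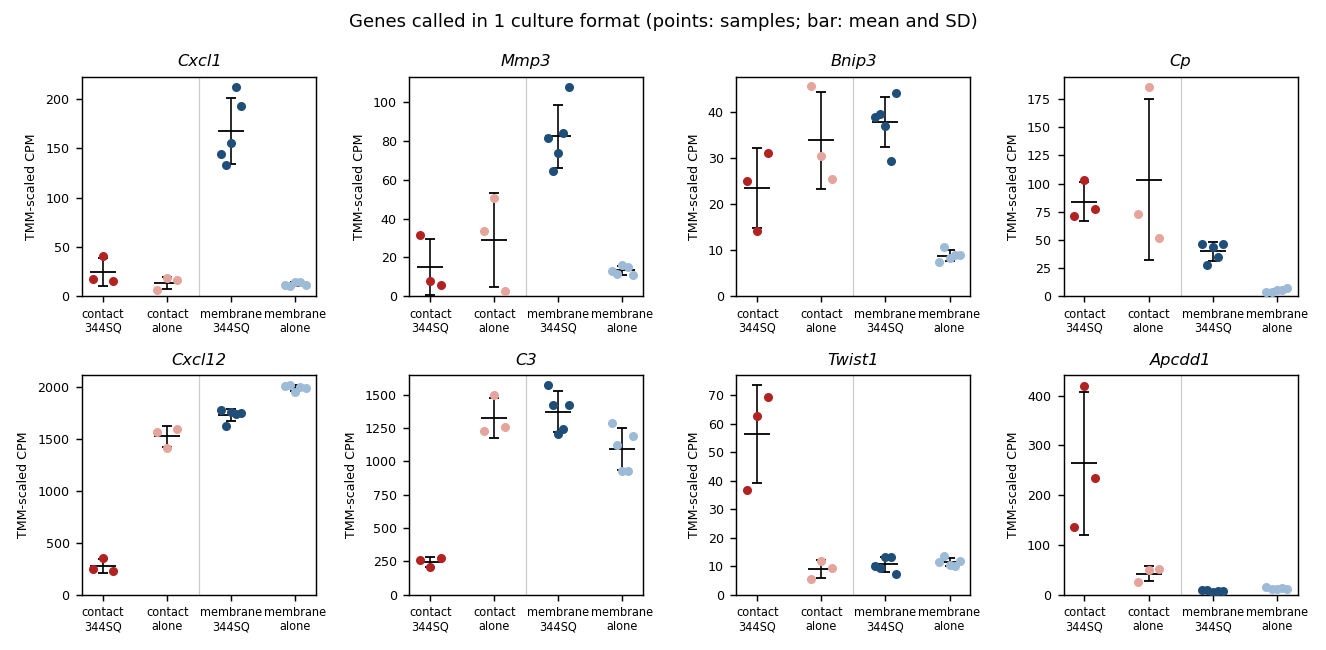
TMM-scaled CPM (y axis from 0) of 8 genes whose change was called in 1 culture format, one point per sample, with the mean and SD as a black bar. Cxcl1, Mmp3, Bnip3 and Cp are apart only between the chamber groups, Cxcl12 and C3 are far lower in the 344SQ aggregates, and Twist1 and Apcdd1 are higher there.

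Some of the strongest responses across the membrane had too few counts in aggregates to pass the count filter there. Of 6213 genes that passed the count filter only in the Boyden table, 412 rose and 261 fell across the membrane. Of the 7827 genes that passed in both tables, 573 (7.32%) rose and 492 (6.29%) fell across the membrane. A gene can pass the filter through the 1 group where it is high, so counts of genes that passed in 1 table depend on the filter. They do not show a direction of response. Saa3, an acute phase apolipoprotein, was at 2239.8, 1818, 2026, 2418 and 2411 CPM across the membrane and 51.9, 59.6, 44.8, 44.1 and 73.1 CPM in chambers alone, a log2 change of 5.32 ± 0.13 (edgeR adjusted p = 2.5e-20). In the aggregates the raw counts of Saa3 were 0, 1 and 1 with 344SQ and 0, 9 and 2 alone. Lcn2, a siderophore-binding lipocalin, was at 26.6, 26.2, 22.9, 22.9 and 22.8 CPM across the membrane, against 0 counts in 3 of the 5 chamber samples alone and at most 0.250 CPM in the others, and had 0 to 2 counts in each aggregate. Cxcl5, another neutrophil chemokine, and Mmp13, a collagenase, were chosen after their values were seen. Cxcl5 rose by 5.88 ± 0.25 and Mmp13 by 3.22 ± 0.12 on the log2 scale across the membrane, with 0 to 4 and 1 to 25 raw counts in the aggregates. With the filter applied to both tables together, which admits genes counted in one, the difference of changes was called lower for all 4: -7.72 for Saa3 (edgeR adjusted p = 4.6e-05), -7.26 for Lcn2 (0.014), -8.07 for Cxcl5 (6.3e-04) and -5.70 for Mmp13 (1.3e-09). The sizes of these differences rest on few aggregate counts and depend on the prior count. Lcn2 and Cxcl5 were near 0 in chambers alone and passed the filter through chamber groups with cancer cells. Their calls are therefore no separate support. Mmp13 had 3, 1 and 3 counts in contact, against 7, 8 and 25 in aggregates alone, without overlap. No fold in contact is given for the 4 genes. In the other direction, 165 genes passed only in the aggregate table, where 20 rose and 3 fell. Of the 7827 genes, 429 (5.48%) rose and 386 (4.93%) fell in contact. The same limit of the filter holds for the 20 and the 3. Penk, the enkephalin precursor, was at 31.9, 84.9 and 64.4 CPM in contact and 6.89, 2.64 and 6.27 CPM in aggregates alone, with 0 or 1 counts in every chamber sample, and was also chosen after its values were seen.

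Genes that moved the same way with a larger change in contact numbered 19 that rose (0.243%) and 31 that fell (0.396%). Grem1, a secreted antagonist of bone morphogenetic proteins, was at 4794, 6062 and 5126 CPM in contact and 1424, 1932 and 1540.2 CPM in aggregates alone. It was at 990.1, 948, 1179.5, 1192 and 1084 CPM across the membrane and 700.5, 845, 872, 769 and 817 CPM in chambers alone. Both pairs of groups were apart, with changes of 1.71 ± 0.13 in contact and 0.43 ± 0.09 across the membrane, a difference of 1.28 ± 0.15 (edgeR adjusted p = 3.0e-07). Ereg, epiregulin, a ligand of the EGF receptor, was at 221, 199 and 274 CPM in contact and 28.9, 57.3 and 48 CPM in aggregates alone, and at 134, 129, 159, 141 and 142 CPM across the membrane and 47.4, 66, 57.9, 62.8 and 58.7 CPM in chambers alone, a difference of 1.17 ± 0.24 (edgeR adjusted p = 0.0011). Ptgs2, the cyclooxygenase that starts inducible prostaglandin synthesis, was at 1098, 981 and 1506 CPM in contact and 332, 477 and 521 CPM in aggregates alone. It was at 725, 629, 657, 676 and 642 CPM across the membrane and 471, 515, 504, 595 and 457 CPM in chambers alone. Ptgs2 rose in both formats without overlap, and the difference was 1.05 ± 0.19 (edgeR adjusted p = 1.4e-04). Tpbg, an oncofetal surface glycoprotein, differed by 2.02 ± 0.38, Tll1, a procollagen protease, by 1.48 ± 0.35, and Tmem2, a surface hyaluronidase, by 1.23 ± 0.18. Among the falls, Peg3 changed by -2.29 ± 0.38 in contact and -0.33 ± 0.11 across the membrane, Prss23 by -2.26 ± 0.36 and -0.34 ± 0.07, and Col4a6, a basement membrane collagen chain, by -2.26 ± 0.30 and -0.38 ± 0.12. Their contact changes rested on few raw counts with 344SQ cells. These were 11, 3 and 4 for Peg3, 5, 1 and 6 for Prss23 and 6, 5 and 19 for Col4a6. Pkia, an inhibitor of protein kinase A, was at 0, 1.57 and 0 CPM in contact and 23.3, 13.5 and 17.4 CPM in aggregates alone, where its fitted difference of -4.48 ± 1.03 rested on a near absence of counts and was -8.49 without 344SQ aggregate 2.

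Genes that moved the same way with no difference called numbered 72 that rose (0.92%) and 44 that fell (0.562%), which does not show that their changes were equal. For 76 of these 116 the 95% interval of the difference lay within -1 to 1. Spp1, osteopontin, a secreted integrin ligand, was at 632, 406 and 424 CPM in contact and 113, 89.3 and 101 CPM in aggregates alone, and at 109.8, 115, 126, 145 and 128 CPM across the membrane and 17, 23.8, 20.5, 22.7 and 25.5 CPM in chambers alone. It rose by 2.25 ± 0.16 in contact and 2.502 ± 0.11 across the membrane, and the 95% interval of its difference ran from -0.66 to 0.16. Slco4a1, an organic anion transporter, was at 95.9, 122 and 103 CPM in contact and 15.6, 23.6 and 29.4 CPM in aggregates alone, and the interval of its difference ran from -0.35 to 0.93. Hmga2, a chromatin protein of growing mesenchyme, was at 664, 669 and 756 CPM in contact and 226, 322 and 169.5 CPM in aggregates alone, and at 604, 551, 669.8, 632 and 615 CPM across the membrane and 251, 252, 249, 241 and 224 CPM in chambers alone. The interval of its difference ran from -0.09 to 0.55, and the difference was called without CAFs-alone aggregate 2 (0.478, edgeR adjusted p = 0.035). Podn, a small leucine-rich proteoglycan, fell by 1.29 in contact and by 1.09 across the membrane on the log2 scale, with an interval from -0.62 to 0.21. The aggrecanase Adamts5 (-0.995 to -0.02) and the carboxypeptidase inhibitor Lxn (-0.86 to 0.19) also fell in both formats, with those intervals of the difference. The whole Adamts5 interval was negative, although its difference was not called (edgeR adjusted p = 0.20).

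Gene lists describe how the members of chosen groups of genes differed. The lists and members were chosen with earlier results of these data known, and some genes are in more than 1 list. No set test was run, so the counts do not show which functions the differences fell on. The lists were read by counts and by the median difference, beside 364 genes higher (4.65%), 382 lower (4.88%) and a median of -0.01 over all 7827 genes. The list of hypoxia and glycolysis genes had the most one-sided count: of 25 members tested, none had a difference called higher and 11 lower, with a median of -0.59, and limma-voom gave 0 and 9. Across the membrane 21 of the 25 rose and 1 fell, and in contact 1 rose and none fell. The 11 were Bnip3, the lactate exporter Slc16a3, Pdk1, Pfkl, Hk2, Ldha, Tpi1, the glucose transporter Slc2a1, Hif1a, Eno1 and Kdm3a. Pfkl, a phosphofructokinase of glycolysis, was at 48.6, 37.6 and 64.7 CPM in contact and 91.1, 69.1 and 56.1 CPM in aggregates alone, and at 55, 60.2, 45.6, 44.4 and 65.7 CPM across the membrane and 30.2, 16.4, 23.9, 27.6 and 23.2 CPM in chambers alone. Hif1a, the oxygen-regulated subunit of the hypoxia-inducible factor, was at 222, 146 and 146 CPM in contact and 257, 179 and 192 CPM in aggregates alone, and at 405, 368, 385, 365 and 379 CPM across the membrane and 226, 256, 261, 247 and 263 CPM in chambers alone. Both pairs overlapped in contact and were apart in chambers, with differences of -1.67 ± 0.31 and -0.90 ± 0.16 (edgeR adjusted p = 2.4e-04 and 1.5e-04). P4ha2, a collagen prolyl hydroxylase subunit, changed by -0.28 ± 0.24 in contact and 0.92 ± 0.11 across the membrane.

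The Wnt list ran the other way, with 7 of 19 members higher, none lower and a median difference of 0.38; limma-voom gave 6 and 0. The 7 were Sfrp2, Apcdd1, Dkk2, Twist1, Nkd1, Nkd2 and the receptor Fzd1. Most of these are inhibitors or feedback regulators of the pathway. Fzd1 was at 382, 553 and 444 CPM in contact and 192, 207 and 189.5 CPM in aggregates alone, while the chamber groups overlapped at 25.3 to 34.1 CPM with 344SQ and 30.1 to 37.2 CPM alone. Nkd1, which binds Dishevelled, was at 56.5, 58 and 43.1 CPM in contact and 31.1, 43.8 and 29.4 CPM in aggregates alone, and at 10.4, 12, 11.9, 11.7 and 13.7 CPM across the membrane and 28.6, 23.8, 23.4, 25.3 and 25.8 CPM in chambers alone. Its fall across the membrane was called and its change in contact was not, and the difference was 1.70 ± 0.30 (edgeR adjusted p = 1.5e-04). Without 344SQ aggregate 2 the list had 6 higher and 1 lower, and with the filter over both tables together 8 of 28 were higher and 1 lower. That joint filter tested a larger set of genes, and smaller shares of them were higher or lower than with the filter in each table. List counts under the joint filter are therefore not comparable with the shares given above for all genes.

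The inflammatory lists differed among themselves. Of 7 chemokines tested, Ccl7, Cxcl1 and Cxcl12 had a lower difference and none a higher one, with a median of -1.85. Cxcl12 was lower through its fall in contact and Cxcl1 through its rise across the membrane. With the filter over both tables together, 5 of 15 chemokines were lower and none higher, a count that also belongs to the larger set of genes. Of 7 cytokines, 2 had a higher difference and none a lower one, with a median of 0.02, and 5 rose in contact and 4 across the membrane; limma-voom called 1 higher. So did edgeR without 344SQ aggregate 2 or 3, CAFs-alone aggregate 1, 344SQ chamber sample 3 or 5, or CAFs-alone chamber sample 1 or 3. Of 7 prostaglandin genes, 1 was higher and 1 lower, with a median of 0.12, and limma-voom called 1 higher and none lower. So did edgeR without 344SQ aggregate 1 or 2, CAFs-alone aggregate 2, 344SQ chamber sample 2 or 4, or CAFs-alone chamber sample 2, 3 or 5. Of 17 genes of NF-kB signalling and its feedback, 11 rose across the membrane and 1 in contact, and 3 differences were lower and 1 higher, with a median of -0.28. Vcam1, an adhesion molecule for leukocytes, was at 264, 157 and 200.02 CPM in contact and 297, 238 and 276 CPM in aggregates alone, and at 808, 812, 804, 817 and 746 CPM across the membrane and 352, 392, 376, 369 and 362 CPM in chambers alone. Sod2, the mitochondrial superoxide dismutase, was at 23.6, 28.2 and 18 CPM in contact and 28.9, 28.6 and 17.4 CPM in aggregates alone, and at 122, 117, 133, 151 and 136 CPM across the membrane and 56.6, 61.5, 56.1, 61.4 and 57.5 CPM in chambers alone. Both were apart in chambers and overlapped in contact, and they differed by -1.49 ± 0.17 and -1.29 ± 0.28 (edgeR adjusted p = 1.6e-07 and 0.0017). Tnfaip2 was the member that went the other way, by 0.81 ± 0.17. The interleukin 1 receptor Il1r1 fell to 133, 143 and 201 CPM in contact, against 327, 393 and 259 CPM in aggregates alone, and differed by -1.09 ± 0.16.

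Of 17 genes of IL-6 and JAK-STAT signalling, 4 had a lower difference and 1 a higher one, with a median of -0.11. The shared receptor chains fell in contact: Il6st, which signals for the whole family, was at 292, 414 and 376 CPM in contact and 556, 644 and 642 CPM in aggregates alone, and Lifr at 28.9, 14.1 and 27.5 CPM in contact and 60.02, 80.9 and 65.4 CPM in aggregates alone. Neither was called across the membrane, and they differed by -0.76 ± 0.14 and -1.36 ± 0.26 (edgeR adjusted p = 2.4e-04 and 3.4e-04). Il6 itself rose across the membrane, at 37.3, 39, 35.7, 34.6 and 38.1 CPM with 344SQ and 13.4, 18.6, 13.3, 17.1 and 14 CPM alone, and overlapped in contact at 11.8, 14.1 and 4.79 CPM with 344SQ and 5.56, 15.2 and 8.01 CPM alone. Its difference of -1.14 ± 0.52 was not called (edgeR adjusted p = 0.18), and its 95% interval ran from -2.19 to -0.09. Of 9 complement genes tested, 3 had a lower difference (C3, C1s1 and C1ra) and none a higher one, with a median of -0.34. Without 344SQ aggregate 3 the complement list had 2 lower and 1 higher.

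Matrix genes split by member rather than by list. Of 28 matrix glycoproteins, 5 had a higher and 8 a lower difference (median -0.09), and of 26 matrix proteases and inhibitors 7 were higher and 4 lower (median 0.09). Fbn1, the microfibril protein fibrillin, was at 1729, 1544 and 1385 CPM in contact and 718, 745 and 715 CPM in aggregates alone, and differed by 1.31 ± 0.13 (edgeR adjusted p = 1.6e-08). Efemp1, an elastic fibre protein, was at 76.2, 61.1 and 93.4 CPM in contact and 320.1, 219 and 268 CPM in aggregates alone, and Matn2, a matrilin, at 61.7, 45.4 and 37.1 CPM in contact and 200.1, 108 and 124 CPM in aggregates alone. Their contact groups were apart, and the 2 genes differed by -1.35 ± 0.18 and -1.73 ± 0.22. Adam12 was at 31.5, 20.4 and 34.7 CPM in contact and 100.03, 128 and 100.1 CPM in aggregates alone, with no change across the membrane past the test, and differed by -1.87 ± 0.20 (edgeR adjusted p = 4.9e-08). Mmp19 differed by 1.19 ± 0.19 in the other direction. Of 23 genes of collagen processing, 1 had a higher and 3 a lower difference (median -0.19), and without CAFs-alone aggregate 1 there were 3 and 2. Of these, Loxl1, a crosslinking enzyme, differed by 1.02 ± 0.16 and Plod2, a lysyl hydroxylase, by -1.02 ± 0.22. Of the heparan sulfate proteoglycans Gpc1, at 210.1, 215 and 179.7 CPM in contact and 52.2, 89.3 and 77.4 CPM in aggregates alone, differed by 1.85 ± 0.31. Of 18 collagen genes, 3 had a higher difference and none a lower one (median 0.19), and 8 fell across the membrane while 1 rose and 2 fell in contact. Without CAFs-alone aggregate 3 the collagens had 2 higher and 1 lower. Col1a1, the main fibrillar collagen chain, had no called change, and its difference of 0.20 ± 0.16 had an interval from -0.12 to 0.52.

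Of 20 genes of the TGF-beta response, 6 had a higher and 1 a lower difference, with a median of 0.28, and without 344SQ aggregate 3 these were 3 and 1. Leaving out CAFs-alone aggregate 3, 344SQ chamber sample 3 or CAFs-alone chamber sample 1 gave 5 and 2, and upper-quartile scaling gave 6 and 2. Pmepa1, a feedback inhibitor of SMAD signalling, was at 234, 284 and 265 CPM in contact and 103, 129.7 and 131 CPM in aggregates alone, while the chamber groups overlapped at 222 to 242 CPM with 344SQ and 235 to 285 CPM alone. Lrrc32, which tethers latent TGF-beta at the surface, was at 318, 458 and 428 CPM in contact and 154, 128 and 147 CPM in aggregates alone. They differed by 1.24 ± 0.14 and 1.31 ± 0.21 (edgeR adjusted p = 5.5e-08 and 3.5e-05). Acta2, smooth muscle actin, the classical mark of contractile myofibroblasts, was at 42, 17.2 and 10.8 CPM in contact and 15.6, 20.2 and 73.4 CPM in aggregates alone, against 3218, 4223, 2619, 2557 and 2989 CPM across the membrane and 5007, 3855, 4249, 4525 and 4318 CPM in chambers alone, on separately scaled tables. Its fall across the membrane of -0.49 ± 0.17 was called (edgeR adjusted p = 0.045), but the groups overlapped in both formats. The interval of its difference, from -1.27 to 0.98, was too wide to place it.

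Of 17 EGF ligands and genes of ERK signalling and feedback, 4 had a higher and 2 a lower difference, with a median of 0.39, and leaving out 344SQ aggregate 3 gave 5 and 1, and CAFs-alone aggregate 2 gave 4 and 1. The inhibitors of this pathway went apart: Spry4 was at 93.2, 75.2 and 105 CPM in contact and 23.3, 40.4 and 29.4 CPM in aggregates alone and differed by 1.69 ± 0.22, Spred1 differed by 1.13 ± 0.19, and Spry2, which rose across the membrane to 86.9, 85.6, 98.7, 89.5 and 94.9 CPM, against 50.3, 61.7, 55.6, 51.4 and 52.4 CPM in chambers alone, differed by -1.13 ± 0.22. Of 25 genes of cholesterol and fatty acid synthesis, 4 had a higher difference and none a lower one, with a median of 0.47, but without CAFs-alone aggregate 1 there were 1 and 1, and without 344SQ aggregate 2 there were 2 and 0. Sqle, squalene epoxidase, differed by 1.30 ± 0.29. Prdx1, a peroxiredoxin and target of NRF2, differed by 1.28 ± 0.24. Of 14 targets of p53, 3 were lower and none higher (median -0.41), among them Ccng1 by -0.80 ± 0.17 and Zmat3 by -0.68 ± 0.14; 5 or 6 were lower without 344SQ aggregate 1, 344SQ aggregate 2 or CAFs-alone aggregate 1. Of the semaphorins, which guide axons and vessels, Sema5a had a difference of 0.98 ± 0.16 and Sema3c of -1.95 ± 0.27.

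Cdh2, N-cadherin, an adhesion molecule between fibroblasts and carcinoma cells, was at 39.4, 39.2 and 46.7 CPM in contact and 68.9, 74.1 and 81.4 CPM in aggregates alone and differed by -1.02 ± 0.19 (edgeR adjusted p = 2.7e-04). Igfbp4, a binding protein of insulin-like growth factors, fell across the membrane to 274, 286, 296, 339 and 303 CPM, against 527, 481, 502, 431 and 487 CPM in chambers alone, and differed by 0.93 ± 0.13. Zfp36l1, an RNA-decay factor, differed by -1.06 ± 0.22. Of 7 Notch genes tested, none had a difference called by edgeR or limma-voom and DESeq2 called 1 lower; 2 had an unadjusted edgeR p under 0.05.

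**Figure D4:**
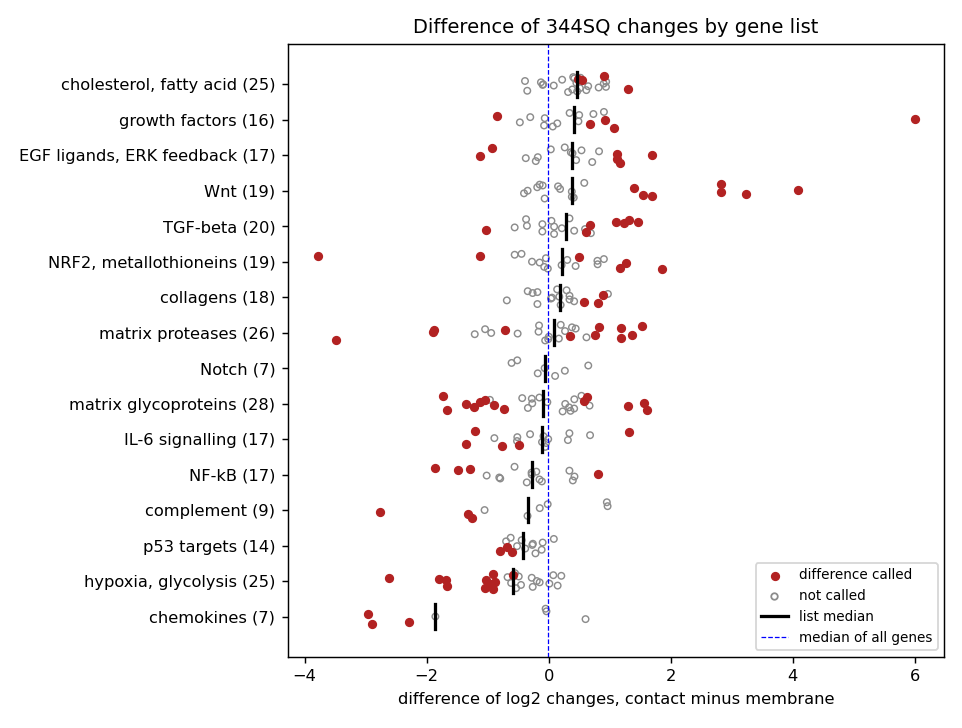
Difference of log2 changes, contact minus membrane (x axis), of each tested member of 16 gene lists (rows, number tested in brackets); filled points passed edgeR's adjusted threshold, black bars are list medians and the dashed line is the median of all 7827 genes. The hypoxia and glycolysis list has 11 filled points, all below 0, and the Wnt list has 7, all above 0.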

How the data were processed

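The authors deposited raw counts per gene and library, made with STAR and HTSeq on the mouse build mm10, per the submitters' processing notes; tool versions, annotation and strand setting are not given in those sources. The tables list 48440 gene IDs, of which 48058 matched GENCODE M21 (GRCm38). Counts from 16 samples were compared; aggregate libraries held 757717 to 1135567 counts and summed Boyden replicates 4182944 to 8542262. Counting error therefore limits low genes first in the aggregates.

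Counts of the 3 technical libraries per Boyden replicate were added up. Genes passing filterByExpr (minimum count 10) in both tables were scaled by TMM within each table and fitted jointly with edgeR 4.0.16, with a mean per group over 24 samples; the groups with 393P cells, another lung cancer line, entered the count filter and the estimate of the spread, and no comparison. The quasi-likelihood F-test (2-sided) of the difference of changes was adjusted by Benjamini-Hochberg over all 7827 genes. Levels are TMM-scaled CPM, except for Lum, Fap, Postn, Epcam and the marker sums, which are scaled by total counts. SE follow from the F statistic, and log2 changes use a prior count of 0.125. The code was tested on simulated data. Limma 3.58.1 (voom, quality weights per format), edgeR per table and DESeq2 1.42.0 were among 15 alternatives, besides leaving out each of 16 samples. R 4.3.3, Python 3.11.15 and matplotlib 3.10.9 were used.

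Named genes follow a rule: differences called by both edgeR and limma-voom with at least 5 CPM in the higher group of each format, the largest of each class, up to 3 per list, and 12 fixed genes; some were left out for space. Called list members named beyond this rule were chosen after their values were seen. Members, rules and the 37 lists (888 entries) were chosen with earlier results of these data known. The table with the Zeb1 shRNA was not used. Sequencing table and format cannot be told apart, since each format is its own table.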

Additional observations from a re-analysis of the deposited data

Results flagged for a closer look

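The 344SQ change differed between contact and membrane for 746 genes by the test of the difference itself, which is the result described above. Among 182 sets of 5 chamber values of the genes named, 5 held a sample far from the other 4, fewer than the 1 in 20 that chance gives. Mgp in CAFs-alone chamber sample 5 was at 32.1 CPM, against 20.5 to 23.0 in the others. Rnf150 in 344SQ chamber sample 2 was at 113 CPM, against 134 to 139.7. Npr3 in CAFs-alone chamber sample 2 was at 373 CPM, against 317 to 329. Cxcl12 in 344SQ chamber sample 2 was at 1624 CPM, against 1742 to 1781. Vcam1 in 344SQ chamber sample 5 was at 746 CPM, against 804 to 817. None of these 5 genes lost its call for the difference when any 1 of the 16 samples was left out.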

How the results depend on the processing

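Scaling by RLE or upper quartiles, TMM over both tables, filtering both tables together and removing ribosomal and mitochondrial genes kept each count over all genes within 1.5 times. Small list counts moved more: the joint filter gave 3 of 4 acute phase genes lower, in place of 1 of 1, and none lower in the prostaglandin and contractile lists, in place of 1 each. The joint filter tested a larger set of genes, with smaller shares called over all of them. Removing ribosomal and mitochondrial genes gave 2 lower in the TGF-beta list, in place of 1. Without the 393P groups fewer genes passed the filter and 671 were called. With a spread per format there were 418 calls (207 higher, 211 lower) in limma-voom and 460 (234, 226) in edgeR per table, in place of 746 (364, 382); opposite genes were 54 and 57 when every test came from that fit. DESeq2 called 911, with 80 concordant differences in place of 50. A log2 difference of at least 1 left 355 (157, 198), 57 opposite and 31 concordant. Single Boyden technical libraries, which lower the depth, gave 364 (173, 191), 375 (169, 206) and 488 (236, 252) calls, 18, 18 and 26 opposite, 8, 10 and 15 concordant with a difference, and 56, 46 and 57 concordant without. Without the count filter the Spearman correlation was 0.035 in place of 0.097. Same-numbered samples of a format correlated, in their deviations from the group means, by 0.000731 to 0.064 in the aggregates and -0.492 to 0.28 in the chambers. Not every sample correlated best with its own number, so samples were not paired in the main fit. So few samples per group cannot exclude pairing. With the replicate block there were 681 calls, 55 opposite, 45 concordant with and 106 without a difference, 653 of the calls shared with the 746. Leaving out each sample in turn gave 599 to 790 calls (285 to 398 higher, 314 to 405 lower), 47 to 85 opposite, 38 to 55 concordant with and 92 to 130 without a difference, and correlations of 0.0721 to 0.115.

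For the 91 named genes, 2801 of 2816 recomputed differences kept direction and side of the threshold, 9 lost their call, 1 gained it (Hmga2) and 5 changed sign, all of Acta2, which was never called: 0.011 in limma-voom, 0.0273 with technical library 1 alone, and 0.00775 to 0.917 in 3 of the repeats without 1 sample (range over all of them -0.93 to 0.92). The lost calls were at a log2 difference of at least 1 or with 1 technical library (Pfkl, library 1). The cause of these shifts was not tested, beyond fewer counts or a stricter threshold.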

Other observations

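The called members of 4 further lists are given here, chosen after their values were seen. Of 17 surface markers and PDGF genes of CAFs, 4 had a higher difference (Thy1, Pdgfc, Pdgfrb and Tnfrsf1a) and 3 a lower one (Cd34, Pdgfra and Il1r1), with a median of 0.14. The receptors for platelet-derived growth factor thus had called differences of either sign, 0.56 for Pdgfrb and -1.63 for Pdgfra, and the ligand Pdgfc had 1.77. Of 16 proteoglycan and hyaluronan genes, 3 were higher and 3 lower, with a median of -0.15. The higher ones were Gpc1 (1.85) and Sdc2 (0.90), which carry heparan sulfate at the surface, and Bgn (0.75), biglycan. The lower ones were Cemip (-2.53), Sdc4 (-0.95), another syndecan, and the hyaluronan receptor Cd44 (-0.42).

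Of 13 genes of the YAP, SRF and CCN group, 4 were higher and none lower, with a median of 0.30, and without 344SQ aggregate 3 there were 3 and 1. The 4 included 3 matricellular proteins of the CCN family, Wisp2 (2.63), Nov (2.46) and Wisp1 (0.84). Of 13 genes of epithelial-mesenchymal transition, 4 were higher and 1 lower, with a median of 0.33, and without 344SQ aggregate 3 there were 2 and 1. The higher ones were the transcription factors Twist1 (2.82), Snai1 (1.03) and Tcf4 (0.58) and the cadherin Cdh11 (0.84), and the lower one was Cdh2 (-1.02). Over all 7827 genes there were 364 higher (4.65%) and 382 lower (4.88%).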
